A study of Homo sapiens with 49 samples.

Results

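The steroid-converting enzymes examined here were 9 genes that make, inactivate, store or release sex steroids: AKR1C1, AKR1C2, AKR1C3, HSD17B1, HSD17B2, HSD17B4, HSD17B8, STS and SULT1E1. They were taken as every probe set whose platform symbol was one of these, which gave 22 of the 54715 probe sets and 9 of the 19774 gene symbols on the array, 21 probe sets with 1 symbol and 1 that names both AKR1C1 and AKR1C2. Ishikawa cells, an established line from a human uterine epithelial adenocarcinoma, were given medium with ethanol (the vehicle) or with the synthetic estrogen ethinyl estradiol (EE) for 72 hours. The groups were vehicle and EE at 0.1, 0.3, 1, 3, 10, 100 and 1000 pM, with 6 arrays each and 7 at 0.3 pM, 49 in all. All groups shared phenol red-free culture in CSS-supplemented medium and a daily exchange of part of the medium, so every value describes a single cell line under these conditions. The labels do not say whether arrays of a group came from separate cultures, so p-values measure the spread between these arrays, which may be technical.

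In the uterus the local supply of active steroid is set by enzymes as well as by the circulation. Reductive enzymes such as HSD17B1 turn estrone into estradiol, oxidative ones such as HSD17B2 turn it back, SULT1E1 attaches sulfate to estrogens and STS takes it off. The AKR1C enzymes are cytosolic reductases of close kinship: AKR1C1 inactivates progesterone, AKR1C2 inactivates dihydrotestosterone, and AKR1C3 makes testosterone and prostaglandin F. Ethinyl estradiol itself is a poor substrate for oxidation at the estradiol hydroxyl because of its ethinyl group.

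Values are the deposited log2 signals. A probe set was taken as measured where its log2 value exceeded a floor of 4 on at least 6 arrays. This held for 12 of the 22 probe sets and for 7 of the 9 genes, and for 22721 probe sets in all, over which every p-value was adjusted (limma, Benjamini-Hochberg, threshold 0.05, with passing probe sets said to be called). Between 38.2% and 39.6% of probe sets exceeded the floor on an array, and array medians lay between 2.95 and 3.05. The cells matched their label: 9 of 9 epithelial markers were measured, 3 of 7 stromal markers (COL1A1, COL1A2 and COL3A1) were measured while PDGFRB, DCN, LUM and THY1 were not, and none of the 5 immune or 4 endothelial markers were. The summed log2 level of the stromal list lay between 10.07 and 10.26 at 1000 pM EE and between 9.63 and 10.22 in vehicle, and that of the epithelial list between 13.46 and 13.55 at 1000 pM and between 13.45 and 13.60 in vehicle. At 1000 pM the collagen COL1A2 rose 2.10-fold (log2 difference 1.07, limma adjusted p = 2.40e-07), COL1A1 fell 1.58-fold (−0.66, adjusted p = 0.00352), and of the epithelial list only the transcription factor SOX17 passed, 1.65-fold higher (adjusted p = 5.59e-11). Between 100 and 1000 pM on one side and 0.1 and 0.3 pM on the other, the contrast in which most AKR1C calls were made, 3 of the 9 epithelial markers were lower, the keratins KRT18 (−0.12) and KRT19 (−0.25) and the cadherin CDH1 (−0.13). In that contrast 5.69% of all probe sets were called lower. The part of these markers in the results below was not tested. The estrogen response was present, with the progesterone receptor PGR at 5.13 log2 units and GREB1 at 2.63 log2 units above vehicle at 1000 pM, while the estrogen receptor ESR1 differed by 0.04 (adjusted p = 0.701). In 4 arrays, namely replicate 2 at 0.3 pM, replicate 6 at 3 pM, replicate 6 at 1000 pM and replicate 5 of vehicle, the control probe sets at the 3′ and 5′ ends of beta-actin RNA differed by 2.67 to 4.62 log2 units, against 0.80 to 2.06 in the other arrays, a sign of RNA quality, and results are given without them where it mattered.

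The calls among these enzymes were in the AKR1C genes. AKR1C1 and AKR1C2 fell at 100 and 1000 pM EE, by 1.27-fold to 1.36-fold in their called probe sets. Their other measured probe sets did not pass against vehicle, and with only the compared arrays in the fit no probe set did. AKR1C3 fell by 1.16-fold when the 2 highest concentrations were set against the 2 lowest. The HSD17B enzymes and STS did not pass the test in the contrasts used. The AKR1C genes lie side by side on chromosome 10 of GRCh38.p14, with AKR1C1 at 4963415 to 4983283, AKR1C2 at 4987775 to 5018000 and AKR1C3 at 5048781 to 5107686. The 250 bases before their annotated start sites are shown because the probe sets of these neighbouring near-copies fell together. A probe set of one of these genes may read RNA of another, and how far it does was not tested. The sequences are those of RefSeq. Capitals mark the CCAAT box, here read from the opposite strand. AKR1C2 has its listed start site inside the annotated span of the gene.
AKR1C1 (GRCh38.p14 chr10:4963165-4963414, plus strand): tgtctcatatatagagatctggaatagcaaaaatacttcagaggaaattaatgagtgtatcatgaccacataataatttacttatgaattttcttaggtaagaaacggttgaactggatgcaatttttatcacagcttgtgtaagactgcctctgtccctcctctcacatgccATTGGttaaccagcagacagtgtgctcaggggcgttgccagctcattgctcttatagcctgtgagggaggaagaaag
AKR1C2 (GRCh38.p14 chr10:5003858-5004107, minus strand): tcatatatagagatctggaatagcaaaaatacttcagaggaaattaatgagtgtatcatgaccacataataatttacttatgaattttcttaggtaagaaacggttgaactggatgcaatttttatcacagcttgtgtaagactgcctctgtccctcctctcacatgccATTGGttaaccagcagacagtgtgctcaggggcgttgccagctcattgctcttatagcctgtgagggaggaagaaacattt
AKR1C3, first start site (GRCh38.p14 chr10:5048531-5048780, plus strand): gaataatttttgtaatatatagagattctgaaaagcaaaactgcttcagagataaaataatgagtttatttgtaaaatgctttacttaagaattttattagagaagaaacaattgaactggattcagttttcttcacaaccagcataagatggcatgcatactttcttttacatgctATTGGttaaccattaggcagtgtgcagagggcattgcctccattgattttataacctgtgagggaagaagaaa
AKR1C3, second start site (GRCh38.p14 chr10:5094164-5094413, plus strand): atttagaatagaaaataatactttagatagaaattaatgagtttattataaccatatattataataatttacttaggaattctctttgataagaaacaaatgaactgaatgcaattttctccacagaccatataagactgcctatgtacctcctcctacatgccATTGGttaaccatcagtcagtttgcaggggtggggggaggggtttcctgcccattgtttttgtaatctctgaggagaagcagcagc
The AKR1C1 and AKR1C2 sequences were identical at 245 of 246 aligned bases (99.6%), and AKR1C1 matched the first and second AKR1C3 sequences at 79.1% and 80.6% of aligned bases. All 4 sequences held 1 CCAAT match on either strand, as did 32.0% of 35116 promoters of the same length. The palindromic estrogen response element, GGTCA and TGACC with 3 bases between, was in none of the 4 and in 0.0399% of all promoters. A single GGTCA on either strand occurred once in AKR1C1 and once in AKR1C2, not in AKR1C3, and in 32.6% of all promoters. TGACNNNGC, the core of the antioxidant response element (10.9% of all promoters), and the AP-1 letters TGANTCA (6.57%) were in none of the 4. These matches describe letters in a window and say nothing about binding.

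AKR1C1 was read by 3 measured probe sets, 204151, 216594 and 217626, named here by the leading number of their platform IDs. Probe set 204151 averaged, in log2 signal, 10.67 ± 0.24 in vehicle, 10.59 ± 0.17 at 0.1 pM, 10.62 ± 0.22 at 0.3 pM, 10.56 ± 0.17 at 1 pM, 10.55 ± 0.20 at 3 pM, 10.43 ± 0.17 at 10 pM, 10.24 ± 0.21 at 100 pM and 10.22 ± 0.23 at 1000 pM (SD, as for all group means). The 1000 pM arrays had a lowest value of 9.91, a median of 10.21 and a highest value of 10.60, against a lowest value of 10.44, a median of 10.62 and a highest value of 11.10 in vehicle. All 6 arrays at 1000 pM lay under the vehicle mean, but the groups overlapped, and vehicle replicate 5, one of the arrays with the high actin difference, was the highest vehicle array. The log2 difference was −0.44 ± 0.11 (SE, as for all differences, 95% interval −0.67 to −0.21, limma adjusted p = 0.0106), a 1.36-fold lower signal at 1000 pM, and it was −0.42 ± 0.11 at 100 pM (adjusted p = 0.0158). At 10 pM the difference was −0.24, with an interval of −0.47 to −0.01 and an adjusted p of 0.446, so a fall of the size seen at 100 pM was not excluded there. Without vehicle replicate 5 the fall at 1000 pM was −0.36 (adjusted p = 0.0532) and that at 100 pM −0.34 (adjusted p = 0.0808). Without 1000 pM replicate 5 the fall at 1000 pM was −0.38 (adjusted p = 0.0517), and without 100 pM replicate 5 that at 100 pM was −0.36 (adjusted p = 0.0608). With array weights the fall at 100 pM was −0.28 (adjusted p = 0.0686), and with only the compared arrays in the fit neither fall passed (adjusted p = 0.121 at 100 pM and 0.123 at 1000 pM).

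**Figure D1:**
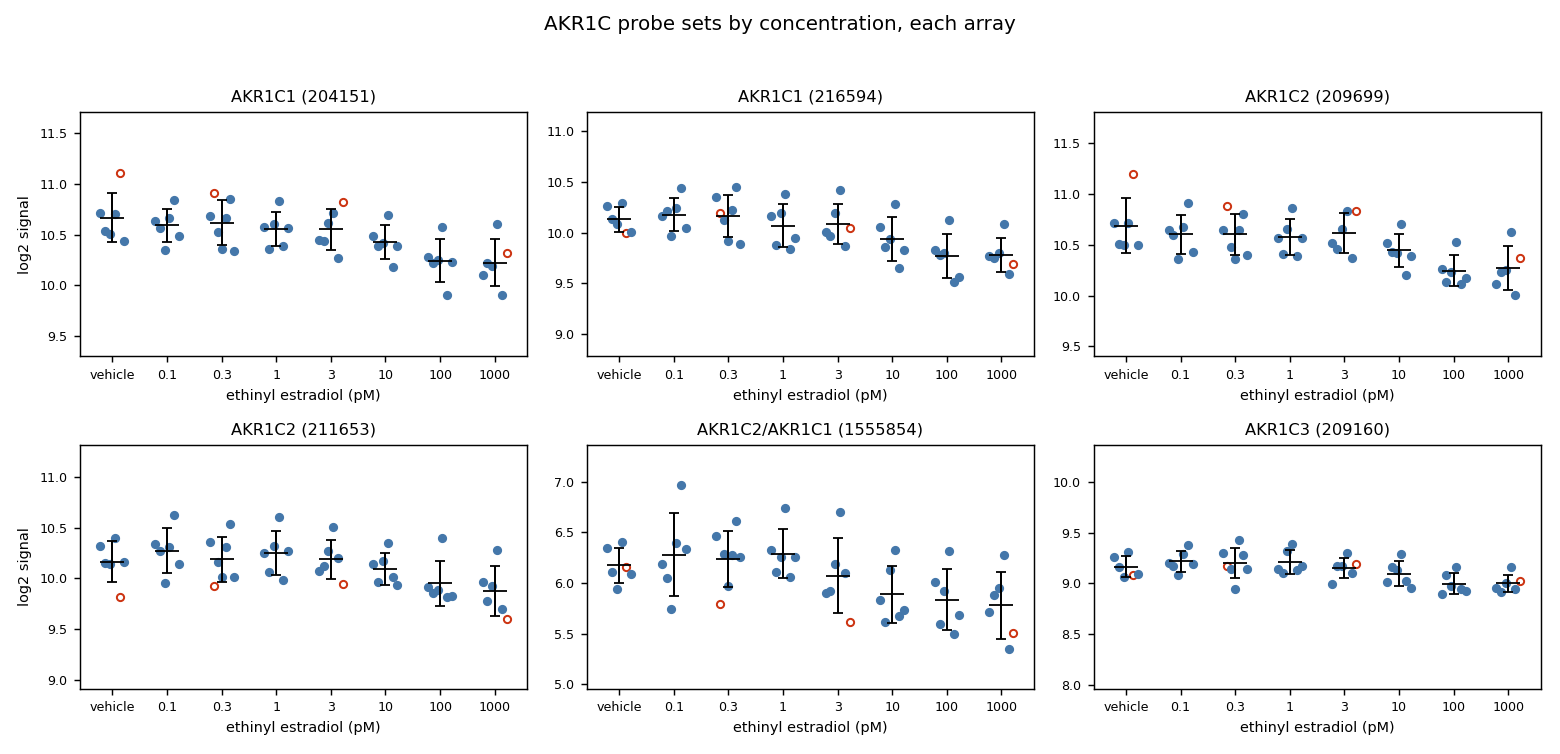
Log2 signal of 6 AKR1C probe sets (y, each panel spanning the same number of log2 units) by EE concentration in pM (x); points are arrays, bars are means ± SD, and open red points are the 4 arrays with a high beta-actin difference. Means are lowest at 100 and 1000 pM in every panel, and the arrays of those groups overlap the vehicle arrays.

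Because all contrasts with vehicle share the 6 vehicle arrays, a contrast without them was computed in the same fit, the mean of the 100 and 1000 pM groups minus the mean of the 0.1 and 0.3 pM groups. There AKR1C1 probe set 204151 had a mean of 10.23 at the 2 high concentrations and 10.60 at the 2 low ones, a difference of −0.37 ± 0.08 (limma adjusted p = 0.000673), and 12 of 12 arrays at 100 and 1000 pM lay under the mean of the low concentrations. Probe set 216594 had 9.77 and 10.17, a difference of −0.40 ± 0.07 (adjusted p = 0.000109, 12 of 12 arrays). Both values held when each array in turn was left out, with differences of −0.41 to −0.34 and −0.43 to −0.37. Against vehicle, probe set 216594 fell by 0.35 at 1000 pM (adjusted p = 0.0456) and by 0.36 at 100 pM (adjusted p = 0.0322), calls close to the threshold that were lost in 9 and 6 of the 12 settings leaving out 1 array. Without the 4 arrays of high actin difference its difference at 1000 pM was −0.36 with an adjusted p of 0.0603. Probe set 217626, near the floor at a mean of 4.17, differed by −0.28 ± 0.09 in the contrast without vehicle (adjusted p = 0.0350) and by −0.32 at 1000 pM against vehicle (adjusted p = 0.172). The call in the contrast without vehicle was lost in 8 of the 25 settings that left out 1 array (adjusted p up to 0.0936), under quantile normalization (−0.27, adjusted p = 0.0544) and without the filter on dim probe sets (adjusted p = 0.0723). GCRMA compresses low signals, so the size of that difference is uncertain. The 2 other AKR1C1 probe sets, 1562102 and 244266, stayed under the floor on all 49 arrays, with highest values of 3.37 and 2.73.

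Same-numbered arrays deviated together among the 1, 3, 10, 100 and 1000 pM groups: 27 of these 30 arrays correlated best with the arrays of their own number. The 100 and 1000 pM arrays in the contrast without vehicle were thus not independent of each other, which its p-values and counts of arrays ignore. In AKR1C1 probe set 204151, replicate 5 was the lowest array at 3, 10, 100 and 1000 pM, with 9.91 at 1000 pM, and replicate 4 the highest at 1, 10, 100 and 1000 pM, with 10.60 at 1000 pM. A contrast of 100 and 1000 pM against 1 and 3 pM, chosen after seeing the data, was therefore fitted on these groups without and with the replicate number as a block. AKR1C1 probe set 204151 averaged 10.23 at 100 and 1000 pM and 10.55 at 1 and 3 pM, a difference of −0.32 ± 0.07 without the block (limma adjusted p = 0.00460) and −0.32 ± 0.04 with it (adjusted p = 6.06e-08). For AKR1C2 probe set 209699 the values were −0.34 ± 0.07 (adjusted p = 0.00105) and −0.34 ± 0.03 (adjusted p = 6.86e-09), and for AKR1C3 −0.18 ± 0.04 (adjusted p = 0.00548) and −0.18 ± 0.03 (adjusted p = 1.75e-05). The same 7 AKR1C probe sets were lower in both fits, where 4.37% of all probe sets were called lower without the block and 7.5% with it. With the block and without the high-actin arrays 7 were lower, against 8.97% of all called lower. STS (−0.17, adjusted p = 0.174 without the block and 0.121 with it) and the HSD17B probe sets did not pass in either fit.

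AKR1C2, which inactivates dihydrotestosterone, fell at the same concentrations as AKR1C1. Probe set 209699 averaged 10.69 ± 0.27 in vehicle, 10.60 ± 0.19 at 0.1 pM, 10.60 ± 0.20 at 0.3 pM, 10.57 ± 0.18 at 1 pM, 10.61 ± 0.20 at 3 pM, 10.44 ± 0.16 at 10 pM, 10.24 ± 0.15 at 100 pM and 10.27 ± 0.22 at 1000 pM. The 1000 pM arrays had a lowest value of 10.01, a median of 10.24 and a highest value of 10.63, against a lowest value of 10.50, a median of 10.61 and a highest value of 11.20 in vehicle. The groups overlapped, and vehicle replicate 5 again stood highest. The log2 difference was −0.42 ± 0.11 at 1000 pM (limma adjusted p = 0.0131) and −0.45 ± 0.11 at 100 pM (adjusted p = 0.00799), and −0.35 ± 0.08 between the high and the low concentrations (adjusted p = 0.00115, 11 of 12 arrays). Without vehicle replicate 5 the difference at 1000 pM was −0.32 (adjusted p = 0.0724), and without 1000 pM replicate 5 it was −0.37 (adjusted p = 0.0560). With only the compared arrays in the limma fit neither difference from vehicle passed (adjusted p = 0.0864 at 100 pM and 0.178 at 1000 pM).

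The second measured AKR1C2 probe set, 211653, averaged 10.16 ± 0.20 in vehicle, 10.28 ± 0.22 at 0.1 pM, 10.19 ± 0.22 at 0.3 pM, 10.25 ± 0.22 at 1 pM, 10.19 ± 0.19 at 3 pM, 10.09 ± 0.16 at 10 pM, 9.95 ± 0.22 at 100 pM and 9.88 ± 0.24 at 1000 pM. It did not pass against vehicle (−0.29 ± 0.12 at 1000 pM, adjusted p = 0.184), whereas in the contrast without vehicle it fell by 0.32 ± 0.08 (adjusted p = 0.00582). Vehicle replicate 5 had 9.81 in this probe set, the lowest of the vehicle arrays, while the same array was the highest in probe set 209699. With the actin difference as a covariate the fall of probe set 211653 at 1000 pM was −0.34 and passed (adjusted p = 0.0333). The probe set that names both genes, 1555854, differed by −0.39 ± 0.17 at 1000 pM against vehicle (adjusted p = 0.226) and by −0.45 ± 0.12 between the high and the low concentrations (adjusted p = 0.00757). The remaining AKR1C2 probe set, 1560098, stayed at or under 2.30 on all arrays.

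AKR1C3, which makes testosterone and prostaglandin F, averaged 9.16 ± 0.10 in vehicle, 9.22 ± 0.10 at 0.1 pM, 9.20 ± 0.15 at 0.3 pM, 9.21 ± 0.12 at 1 pM, 9.15 ± 0.10 at 3 pM, 9.10 ± 0.12 at 10 pM, 9.00 ± 0.10 at 100 pM and 9.00 ± 0.09 at 1000 pM in probe set 209160. The 1000 pM arrays had a lowest value of 8.91, a median of 8.98 and a highest value of 9.16, against a lowest value of 9.07, a median of 9.13 and a highest value of 9.31 in vehicle, so the groups overlapped. Against vehicle it did not pass at 1000 pM (−0.17 ± 0.07, adjusted p = 0.171) or at 100 pM (−0.17 ± 0.07, adjusted p = 0.115). Between the high and the low concentrations it fell by 0.21 ± 0.05, a 1.16-fold lower signal (adjusted p = 0.000929), with 12 of 12 arrays under the mean of the low concentrations. That difference stayed between −0.23 and −0.19 when each array in turn was left out.

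The size of the fall was compared between the 3 genes in each array, over 3 pairs, with an exact two-sided permutation test of 1000 pM against vehicle (924 arrangements, smallest possible p 0.00216). The AKR1C1 signal minus the AKR1C3 signal was 1.22 ± 0.16 at 1000 pM and 1.50 ± 0.26 in vehicle (SD), a change of −0.28 (exact p = 0.0195, adjusted over the pairs 0.0487). For AKR1C2 minus AKR1C3 the change was −0.26 (exact p = 0.0325, adjusted 0.0487), and for AKR1C1 minus AKR1C2 it was −0.02 (exact p = 0.368). The first 2 did not hold without the 4 arrays of high actin difference, with changes of −0.19 and −0.15 (adjusted exact p = 0.107 for both), and they were smallest without vehicle replicate 5, at −0.17 and −0.14. Both calls were lost in 8 of the 12 settings that left out 1 array, so a larger fall of AKR1C1 or AKR1C2 than of AKR1C3 was not firmly shown.

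The AKR1C probe sets varied together within and across gene names. Over the 49 arrays AKR1C1 probe set 204151 correlated with AKR1C2 probe set 209699 at r = 0.977, and at r = 0.968 after group means were removed. With the other bright AKR1C1 probe set, 216594, it correlated at 0.849, at 0.754 after group means were removed, and at 0.918 when the 4 arrays of high actin difference were also left out. The 2 AKR1C2 probe sets, 209699 and 211653, correlated with each other at 0.456 after removal of group means, and at 0.864 without the 4 arrays of high actin difference. AKR1C3 probe set 209160 correlated with AKR1C1 probe set 204151 at 0.740 over all arrays and at 0.604 after group means were removed. These are descriptions over arrays that share dose groups and RNA quality, and 4 of the 12 measured probe sets, all of AKR1C1 or AKR1C2, carry the x suffix by which the platform marks probes that may bind other transcripts. How far a probe set of one gene reads RNA of the other was not tested. In bulk samples fewer cells with these RNAs and less RNA per cell cannot be told apart.

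Hill curves of slope 1 placed the midpoint of the log2 change at 10.5 pM for AKR1C1 probe set 204151 (95% interval 2.0 to 72.4 pM), at 8.32 pM for probe set 216594 (1.74 to 45.7 pM) and at 12.0 pM for AKR1C2 probe set 209699 (2.51 to 69.2 pM). The fitted full changes were −0.41, −0.40 and −0.40 log2 units, and the curves took up 40.9%, 42.3% and 40.1% of the variance between arrays. Only probe sets called by the F test on these same arrays were fitted, so the curves describe a change already selected for. They may read shared RNA, so their likeness is not independent support, and the intervals treat arrays as independent. The intervals overlapped, so no order of the genes in sensitivity to EE could be read from them. With a slope of 2 the midpoints were 10.0, 8.32 and 10.5 pM.

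Other genes with the pattern of AKR1C1 were sought by their correlation over the 49 arrays. After AKR1C2 the nearest to probe set 204151 were RBP2, a cellular retinol-binding protein (r = 0.857, and 0.765 after group means were removed), and P3H2, a collagen prolyl hydroxylase (r = 0.832). For AKR1C2 probe set 209699, after AKR1C1, they were RBP2 (r = 0.862) and MAL, a membrane proteolipid of apical transport (r = 0.849). RBP2 averaged 5.67 ± 0.32 at 1000 pM and 6.64 ± 0.34 in vehicle, a difference of −0.97 ± 0.16 (limma adjusted p = 1.66e-05), and P3H2 differed by −0.95 ± 0.12 (adjusted p = 1.32e-07). MAL differed by −0.42 ± 0.17 and did not pass (adjusted p = 0.178).

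No HSD17B probe set was called in any contrast. HSD17B1, which reduces estrone to estradiol, was read by 2 probe sets that did not move together (r = 0.180 after group means were removed). Probe set 228595 averaged 5.46 ± 0.67 in vehicle, 5.19 ± 0.16 at 0.1 pM, 5.24 ± 0.34 at 0.3 pM, 5.07 ± 0.08 at 1 pM, 5.36 ± 0.17 at 3 pM, 5.11 ± 0.22 at 10 pM, 4.99 ± 0.09 at 100 pM and 5.09 ± 0.18 at 1000 pM. The wide spread in vehicle came from replicate 5 at 6.78, with the other 5 vehicle arrays between 4.97 and 5.50. The difference was −0.38 ± 0.17 at 1000 pM (adjusted p = 0.251) and −0.48 ± 0.17 at 100 pM (adjusted p = 0.0791). Without the 4 arrays of high actin difference it was −0.16 at 1000 pM (adjusted p = 0.449). The deviation of each array from its group mean followed the actin difference at r = 0.865 over 49 arrays. Between the high and the low concentrations the difference was −0.18 (adjusted p = 0.432), and −0.20 with the actin difference as a covariate, where it passed (adjusted p = 0.0195).

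The second HSD17B1 probe set, 205829, averaged 5.17 ± 0.07 in vehicle, 5.08 ± 0.19 at 0.1 pM, 5.26 ± 0.17 at 0.3 pM, 5.23 ± 0.13 at 1 pM, 5.07 ± 0.11 at 3 pM, 5.15 ± 0.20 at 10 pM, 5.30 ± 0.17 at 100 pM and 5.21 ± 0.14 at 1000 pM, with a difference of 0.04 at 1000 pM (interval −0.14 to 0.23, adjusted p = 0.863). The 2 probe sets therefore disagreed in sign, and HSD17B1 has no settled direction here.

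**Figure D2:**
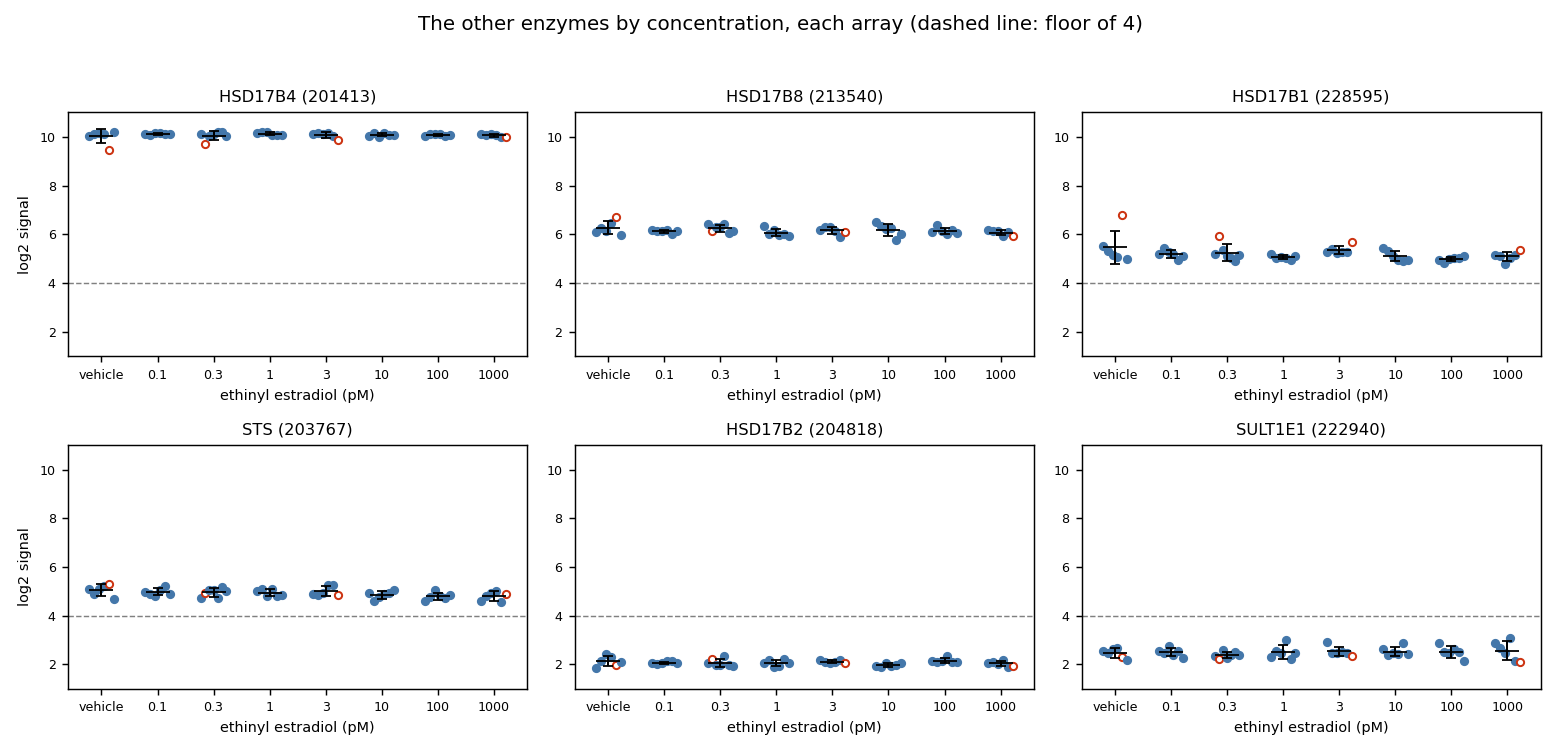
Log2 signal (y, 1 scale for all panels) of HSD17B4, HSD17B8, HSD17B1, STS, HSD17B2 and SULT1E1 by EE concentration in pM (x); points are arrays, bars are means ± SD, open red points are the 4 arrays with a high beta-actin difference, and the dashed line is the floor of 4. HSD17B2 and SULT1E1 lie under the floor on every array, and the open points stand high in HSD17B1 and low in HSD17B4.

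HSD17B4, the peroxisomal multifunctional enzyme of fatty acid oxidation that can also oxidise estradiol, averaged 10.02 ± 0.28 in vehicle, 10.12 ± 0.03 at 0.1 pM, 10.05 ± 0.17 at 0.3 pM, 10.13 ± 0.06 at 1 pM, 10.07 ± 0.12 at 3 pM, 10.09 ± 0.06 at 10 pM, 10.08 ± 0.04 at 100 pM and 10.06 ± 0.05 at 1000 pM in probe set 201413. The 1000 pM arrays spanned 9.99 to 10.11, inside the 9.45 to 10.21 of the vehicle arrays. The difference at 1000 pM was 0.04 ± 0.07 (interval −0.11 to 0.19, adjusted p = 0.834). Between the high and the low concentrations it was −0.02, with an interval of −0.12 to 0.09, which leaves out changes of the size called for AKR1C1. Its deviations ran against the actin difference (r = −0.881 over 49 arrays), the opposite of HSD17B1. The second HSD17B4 probe set, 1563696, stayed under the floor with a highest value of 2.61.

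HSD17B8, a mitochondrial member that oxidises estradiol, averaged 6.27 ± 0.28 in vehicle, 6.13 ± 0.06 at 0.1 pM, 6.25 ± 0.14 at 0.3 pM, 6.07 ± 0.14 at 1 pM, 6.16 ± 0.16 at 3 pM, 6.18 ± 0.26 at 10 pM, 6.14 ± 0.13 at 100 pM and 6.07 ± 0.11 at 1000 pM. The difference at 1000 pM was −0.20 ± 0.10 (interval −0.41 to −0.0012, adjusted p = 0.314), and the arrays overlapped. HSD17B2, which oxidises estradiol to estrone and is known as a progesterone-induced gene of the endometrial epithelium, was not above the floor on any array. Its probe set 204818 lay between 1.85 and 2.41, with medians of 2.05 at 1000 pM and 2.12 in vehicle. No group was given progesterone, so induction by it was not tested.

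**Figure D3:**
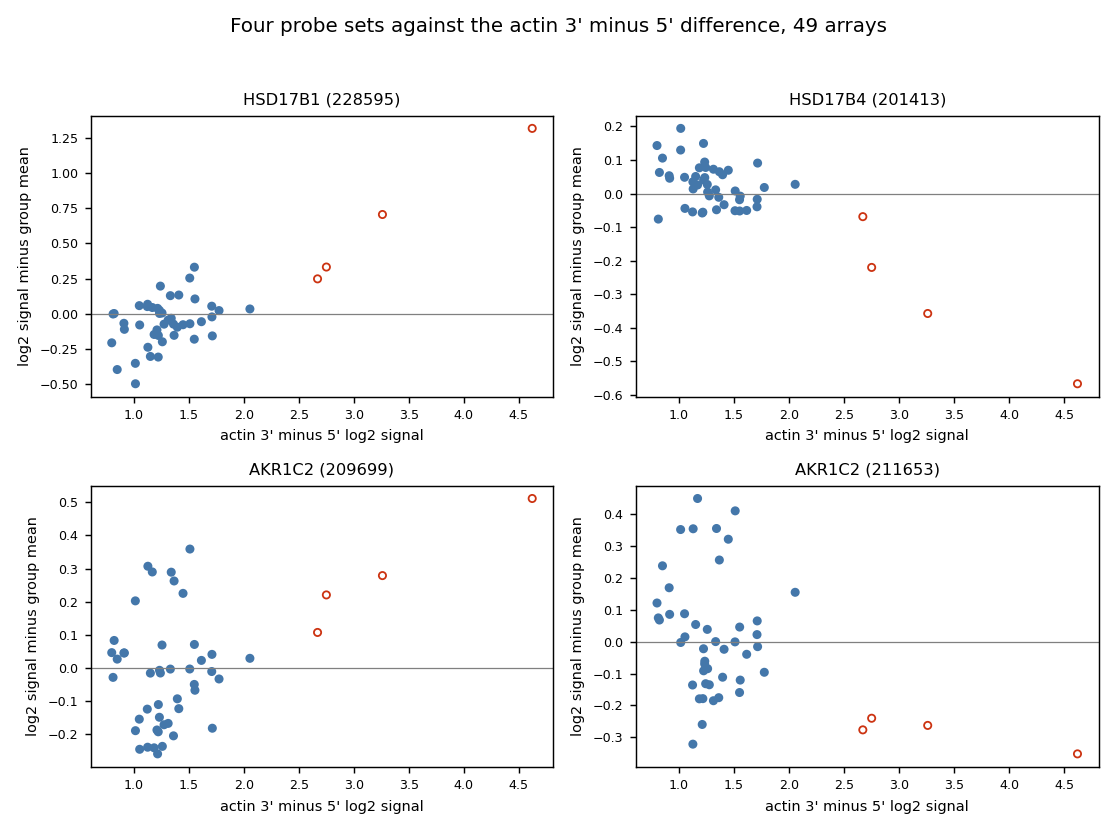
Log2 signal minus the group mean (y) against the beta-actin 3′ minus 5′ log2 difference (x) on 49 arrays for HSD17B1 probe set 228595, HSD17B4 probe set 201413 and AKR1C2 probe sets 209699 and 211653; open red points are the 4 arrays above the limit of 2.48. These 4 arrays lie above their group mean in HSD17B1 and in AKR1C2 probe set 209699, and below it in HSD17B4 and in AKR1C2 probe set 211653.

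The enzymes of the sulfate cycle were dim. STS, which removes sulfate from estrone sulfate, had 1 measured probe set, 203767, and 3 others under the floor. It averaged 5.05 ± 0.23 in vehicle, 4.97 ± 0.15 at 0.1 pM, 4.95 ± 0.17 at 0.3 pM, 4.94 ± 0.14 at 1 pM, 5.00 ± 0.19 at 3 pM, 4.86 ± 0.16 at 10 pM, 4.80 ± 0.14 at 100 pM and 4.80 ± 0.19 at 1000 pM. The 1000 pM arrays had a lowest value of 4.57, a median of 4.86 and a highest value of 5.02, against a lowest value of 4.69, a median of 5.10 and a highest value of 5.32 in vehicle. All 6 arrays at 1000 pM lay under the vehicle mean, yet the difference of −0.25 ± 0.10 did not pass (interval −0.45 to −0.04, adjusted p = 0.200), nor did that of −0.16 between the high and the low concentrations (adjusted p = 0.172). SULT1E1, the estrogen sulfotransferase, lay under the floor on all 49 arrays, between 2.11 and 3.10 in probe set 222940 and between 1.96 and 3.00 in probe set 219934, and no direction was read from it.

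Read as a group, none of the 12 measured probe sets was called at 0.1, 0.3 or 1 pM, where 0% of all probe sets were called, at 3 pM (0.0836% of all) or at 10 pM (0.502%). At unadjusted p under 0.05 limma gave 0, 0, 2, 0 and 3 of them at 0.1, 0.3, 1, 3 and 10 pM. At 100 pM 3 were called, all lower, against 6.44% of all probe sets called, 3.66% lower and 2.78% higher. At 1000 pM the 3 called were again lower, against 4.92% of all called, 2.78% lower and 2.14% higher. Between the high and the low concentrations 7 were called, all lower and all AKR1C, with 217626 among them as the call that several settings ended, against 9.92% of all called, 5.69% lower and 4.24% higher. Over the 8 groups the F test called 3 probe sets, 204151, 216594 and 209699, against 4.96% of all. Since several of these probe sets may read the same RNA, the counts are not counts of separate genes. At 1 probe set per gene AKR1C1 and AKR1C2 were still called lower at 1000 pM. In the contrast without vehicle 3 genes were lower there, against 13.0% of all called in either direction.

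The median log2 difference of the 12 probe sets was −0.19 at 10 pM, −0.25 at 100 pM and −0.31 at 1000 pM, beside 0.01 over all 22721 probe sets at each of these concentrations. In the contrast without vehicle it was −0.24, beside −0.01 over all. Without the 4 arrays of high actin difference 3 were lower at 100 pM (7.41% of all called), 2 at 1000 pM (6.16%) and 7 in the contrast without vehicle (16.3%). Without 1000 pM replicate 5 none was called at 1000 pM (4.12% of all), and without vehicle replicate 5 there was 1 (4.73%). Without 100 pM replicate 5 there was 1 at 100 pM (5.12%), and without vehicle replicate 6 there were 5 at 100 pM (9.89%), with HSD17B1 probe set 228595 and STS called as well.

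**Figure D4:**
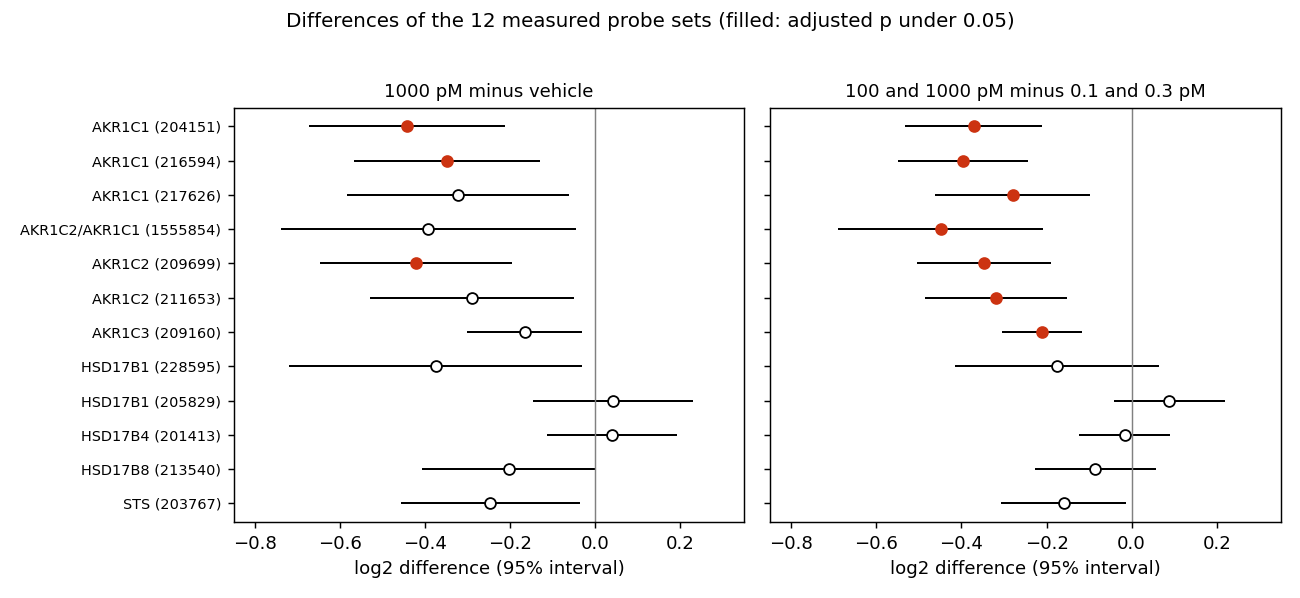
Log2 differences (x) of the 12 measured probe sets, ordered by gene (y), for 1000 pM minus vehicle (left) and for 100 and 1000 pM minus 0.1 and 0.3 pM (right); points are limma estimates, lines 95% intervals, and filled red points passed at an adjusted p of 0.05. All 7 AKR1C probe sets are filled on the right and 3 on the left, and no HSD17B or STS probe set is filled.

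Enzymes around these 9 genes were taken from lists of related genes. Of 10 other enzymes of the HSD17B activity, 8 were measured and none passed at 1000 pM, where 4.92% of all probe sets were called. The nearest was HSD17B14, which oxidises estradiol, at −0.34 (adjusted p = 0.0801), and this name was chosen after its value was seen. Of 22 genes of steroid synthesis 5 were measured and none passed. At that share of calls lists this short may hold none, so neither count is a result about these pathways. CYP19A1, the aromatase that makes estrogens from androgens, stayed at or under 2.87 on every array, a name also chosen after its value was seen.

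Of 30 genes of estrogen sulfation, glucuronidation, hydroxylation and transport, 15 were measured, 1 rose and 1 fell at 1000 pM. Of all probe sets 2.14% were called higher and 2.78% lower there. The rise was in PAPSS2, which makes the sulfate donor PAPS that sulfotransferases such as SULT1E1 consume. PAPSS2 averaged 6.62 ± 0.17 in vehicle, 6.66 ± 0.13 at 0.1 pM, 6.51 ± 0.17 at 0.3 pM, 6.75 ± 0.07 at 1 pM, 6.81 ± 0.04 at 3 pM, 6.99 ± 0.11 at 10 pM, 7.45 ± 0.08 at 100 pM and 7.62 ± 0.09 at 1000 pM. The lowest array at 1000 pM, 7.49, lay above the highest vehicle array, 6.76, a difference of 1.00 ± 0.07 and a 1.99-fold rise (limma adjusted p = 3.82e-15). It already passed at 10 pM, at 0.37 ± 0.07 (adjusted p = 0.00213). The fall was in SUMF1, which installs the catalytic residue of sulfatases such as STS. SUMF1 averaged 7.75 ± 0.04 at 1000 pM and 8.04 ± 0.10 in vehicle, a difference of −0.29 ± 0.06 (adjusted p = 0.00106). CYP1A1, a hydroxylase of estrogens, did not pass at 1000 pM against vehicle (−0.90 ± 0.34, adjusted p = 0.147), while between the high and the low concentrations it fell by 0.83 ± 0.24 (adjusted p = 0.0162). Its spread within groups ran with the replicate number, with replicate 5 highest in each of the 1, 3, 10, 100 and 1000 pM groups. Replicate 6 was highest in vehicle (6.69) and at 0.1 pM (6.68), and replicate 7 at 0.3 pM (6.62). The 2 contrasts just given take no account of this. At 100 and 1000 pM against 1 and 3 pM CYP1A1 differed by −0.66, with an SE of 0.22 without the block (adjusted p = 0.0663) and of 0.06 with it (adjusted p = 2.46e-10).

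AKR1C1, AKR1C2 and AKR1C3 are known as targets of NRF2, the transcription factor of the oxidative stress response, so a list of 23 other NRF2 targets was set beside them. Of these 16 were measured, 1 rose, 1 fell and 14 did not pass at 1000 pM, with a median of 0.09. Of all probe sets 4.92% were called there, so a list this short would hold few calls at that share. The cystine transporter SLC7A11 rose to 10.62 ± 0.11 at 1000 pM, against 10.11 ± 0.48 in vehicle (0.51 ± 0.13, adjusted p = 0.00742), and the difference was 0.33 without vehicle replicate 5 (adjusted p = 0.0374). The efflux pump ABCC3 fell to 5.78 ± 0.19 at 1000 pM, against 6.53 ± 0.12 in vehicle (−0.76 ± 0.11, adjusted p = 2.70e-06). NQO1, a quinone reductase and standard NRF2 target, differed by −0.01 (adjusted p = 0.971) in the brightest of its 3 probe sets, and it was chosen after its value was seen. The part of NRF2 in the changes of the AKR1C genes was not tested.

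**Figure D5:**
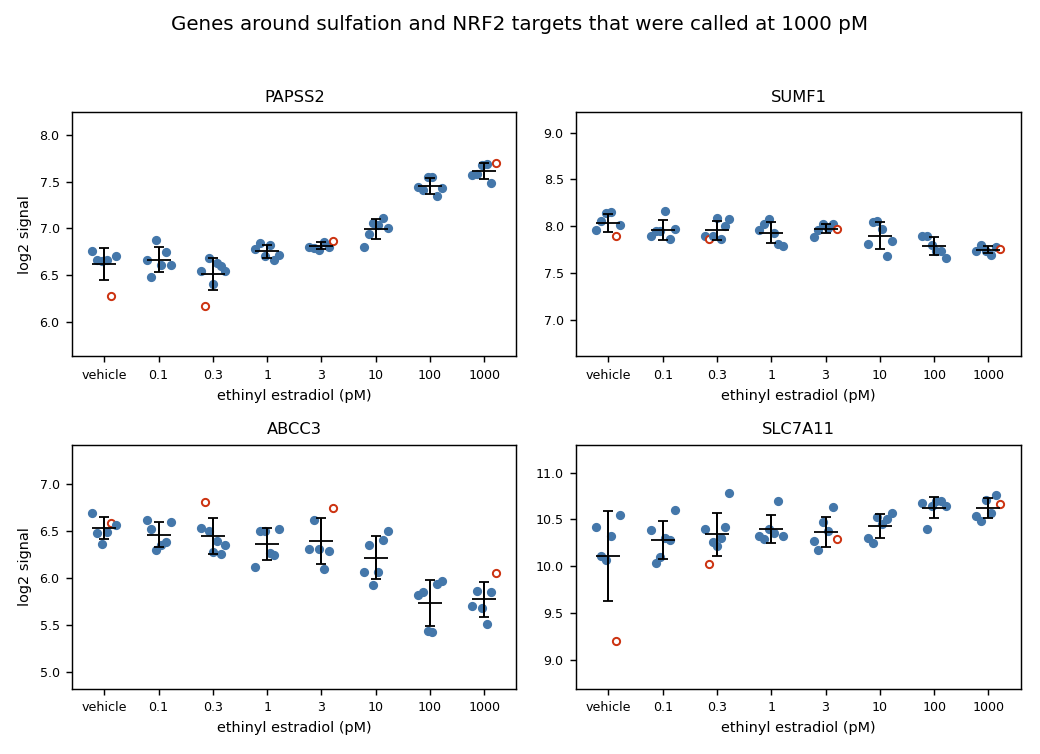
Log2 signal (y, each panel spanning the same number of log2 units) of PAPSS2, SUMF1, ABCC3 and SLC7A11 by EE concentration in pM (x); points are arrays, bars are means ± SD, and open red points are the 4 arrays with a high beta-actin difference. PAPSS2 climbs to 7.62 at 1000 pM, against 6.62 in vehicle, while ABCC3 is lower at 100 and 1000 pM.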

How the data were processed

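RNA from Ishikawa cells was hybridised to 1 Affymetrix array per sample (HT HG-U133 Plus PM). The values are log2 expression levels as the authors deposited them; the submitters' processing notes name GCRMA and Partek with no version, so background correction, normalization and summarization were done before deposit. Depth does not apply, and the number of arrays limits the precision. No column of per-sample values was left unused (0).

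The members and all gene lists were chosen with earlier results of these data known, as were the 4 arrays of high actin difference (over 4 median absolute deviations above the median). A model with 1 mean for each of the 8 groups was fitted in limma 3.58.1 with an intensity trend, and p-values were adjusted after Benjamini-Hochberg within each contrast over 22721 probe sets (R 4.3.3 with statmod 1.5.0 and version 1.17.8 of the data.table package). AKR1C changes were compared by exact permutation over arrays, adjusted over 3 pairs. Hill curves, promoter comparisons (Biopython 1.88) and figures used Python 3.11.15, scipy 1.17.1, numpy 2.4.6, pandas 2.3.3 and matplotlib 3.10.9. Promoters came from RefSeq of GRCh38.p14, which listed 7 of the 9 genes; all 9 were matched by Entrez identifier. The limma and Hill fits, but not the permutation test, were tried on simulated data. Noise there was independent between arrays, unlike the shared spread of same-numbered arrays here.

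Named by rule were all members, called genes of the lists (at most 6 a list), PGR, GREB1, ESR1, and the 3 genes most correlated with each gene whose representative probe set (the measured one with the highest mean) passed the F test. No block was used in the contrasts above. Deviations of same-numbered arrays all correlated over 0.1 in none of the 18 pairs of groups that include vehicle, 0.1 or 0.3 pM (−0.58 to 0.56), but in 8 of the 10 pairs among 1, 3, 10, 100 and 1000 pM, and in all 4 pairs of 1 or 3 pM with 100 or 1000 pM. Single genes could still follow the number in the other groups. CYP1A1 replicates 1 to 6 had 6.17, 5.04, 4.89, 5.92, 6.30 and 6.69 in vehicle. At 0.1 pM they had 6.08, 5.13, 4.88, 5.67, 6.33 and 6.68, and at 0.3 pM the same order ran over replicates 2 to 7. Whether these groups share a batch was not tested, and the labels do not say what a number marks. A contrast with the number as a block was added for the groups from 1 pM on after seeing the data. Standard errors without the block hold this shared spread. In the contrast without vehicle the 100 and 1000 pM arrays were counted as separate. Same-numbered arrays of these 2 groups correlated at −0.06 to 0.50 in their deviations, so the standard errors of that contrast may be too small. Where numbers also pair its high and low concentrations they may be too large.

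Alternatives were other floors, normalizations and variance priors, array weights, fewer arrays in the fit, 1 probe set per gene, the actin difference as covariate, the replicate block, and leaving out arrays.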

Additional observations from a re-analysis of the deposited data

Results flagged for a closer look

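Within groups of 6 or 7 arrays, 1 array stood far from the others in 10 of 96 tested sets of values, and 5 of these 10 were in arrays of high actin difference. Chance flags about 1 in 20 of separate sets. These sets share arrays and hold correlated probe sets, so the count is no test against that rate. Vehicle replicate 5, one of those arrays, stood apart in 3 probe sets. It had 11.20 in AKR1C2 probe set 209699, where the other vehicle arrays lay between 10.50 and 10.72. It had 6.78 in HSD17B1 probe set 228595, above the other arrays at 4.97 to 5.50, and 9.45 in HSD17B4, below the others at 10.05 to 10.21. Of the other arrays with a high actin difference, 3 pM replicate 6 had 5.69 in HSD17B1 probe set 228595 (others 5.25 to 5.38) and 0.3 pM replicate 2 had 9.69 in HSD17B4 (others 10.02 to 10.19).

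Replicate 4 at 100 pM, which had no high actin difference, stood above its group in both AKR1C2 probe sets. It had 10.53 in probe set 209699 (others 10.12 to 10.26) and 10.40 in probe set 211653 (others 9.82 to 9.91). The remaining values were 3.40 in AKR1C1 probe set 217626 at 1000 pM replicate 2 (others 3.93 to 4.10), 4.77 in HSD17B1 probe set 205829 at 10 pM replicate 6 (others 5.15 to 5.35) and 6.01 in HSD17B8 at 0.1 pM replicate 5 (others 6.13 to 6.18).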

How the results depend on the processing

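No called result changed direction under any alternative run, while HSD17B4 at 1000 pM, not called at 0.04, was −0.06 without the 4 arrays of high actin difference. Fitting only the arrays compared left 0 member probe sets called at 100 pM (1.56% of all called, against 6.44%) and 0 at 1000 pM (1.78%, against 4.92%), where 3 each were called otherwise. With 1 probe set per gene 3 were called in the contrast without vehicle (13.0% of all), against 7 (9.92%). The F test called 5 with the replicate block (5.88% of all) and 5 with the actin difference as covariate (8.72%), against 3 (4.96%). Under the replicate block over all groups no call of these probe sets at 100 pM, at 1000 pM or without vehicle was lost or gained. The numbers may not mark the same pairs in all groups, as CYP1A1 levels ran in another order of numbers from 1 pM on than in vehicle and at 0.1 pM. The share of all probe sets called is not set beside this, so nothing about the members is read from it. Leaving out 1 array at a time gave 1 to 5 calls at 100 pM, with 5.12% of all called in the setting with 1 and 9.89% in that with 5. At 1000 pM it gave 0 to 3, with 4.12% of all called in the setting with 0. In the contrast without vehicle only the call of 217626 was lost, in 8 of 25 settings. The F test called 3 to 5, with 4.54% of all called in the setting with 5. The change of AKR1C1 relative to AKR1C3 ranged from −0.32 to −0.17 and that of AKR1C2 relative to AKR1C3 from −0.30 to −0.14, and without the 4 arrays of high actin difference they were −0.19 and −0.15 (exact adjusted p = 0.107 for both). The causes of these shifts were not tested, beyond the fewer arrays or tests that some settings hold. The falls of 204151, 216594, 209699, 211653, 1555854 and AKR1C3 in the contrast without vehicle passed in every setting run. PAPSS2 passed in every setting run at 100 and 1000 pM. SLC7A11 did not pass when only the compared arrays were fitted (adjusted p = 0.294 at 1000 pM). Values near the floor, such as AKR1C1 probe set 217626, limit what signal over background allows.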
